A study of Mus musculus with 16 samples.

Results

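The homeostatic microglia genes are a group of 9 genes, Cx3cr1, P2ry12, P2ry13, Tmem119, Csf1r, Siglech, Gpr34, Sall1 and Selplg, which were found by their symbols among the 26625 genes of the deposited table. All 9 were listed once, and all 9 were among the 18826 genes that passed the filter on low counts. They were followed through the medial prefrontal cortex (mPFC) of 16 male C57BL/6 mice that were 8 to 10 weeks old. Every mouse had received an adeno-associated virus in the mPFC before conditioning. The virus of the Kdm7a-shRNA groups carried a short hairpin RNA against Kdm7a, a histone demethylase, behind a U6 promoter and EGFP behind a CMV promoter, and that of the Ctrl groups carried a control hairpin in the same backbone. Neither promoter is restricted to 1 cell type. In the conditioned place preference procedure the mice then received 5 injections of morphine at 10 mg/kg, or saline, within 10 days, and the mPFC was collected 7 days into withdrawal, on day 17. With the control virus there were 3 mice given saline (Ctrl + Saline) and 4 given morphine (Ctrl + Morphine). With the knockdown virus there were 5 given saline (Kdm7a-shRNA + Saline) and 4 given morphine (Kdm7a-shRNA + Morphine). Replicate numbers are those of the labels. The labels do not say that each sample came from 1 animal, so that the p-values measure the spread between these samples.

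Microglia are the resident macrophages of the brain parenchyma. In the healthy brain they survey their surroundings with fine processes. They express a set of genes, most of them for receptors and surface proteins, that are scarce in many other brain cells. Other macrophages and blood leukocytes express part of this set. This set is called homeostatic because many of its genes are known to be turned down when microglia respond to injury, dying cells or protein deposits, while a different set, which includes Apoe, Cst7 and Spp1, is turned up. The signals behind the homeostatic state are known to include ligands of CSF1R and transforming growth factor beta.

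The samples held 6596991 to 12418112 counted reads. Kdm7a, the gene under the hairpin, stood at 9.42 ± 0.352 normalized CPM (counts scaled to library size with edgeR's TMM factors) in the Ctrl + Saline group (SD, n = 3), at 7.72 ± 1.13 in the Ctrl + Morphine group (n = 4), at 5.55 ± 0.570 in the Kdm7a-shRNA + Saline group (n = 5) and at 4.94 ± 1.53 in the Kdm7a-shRNA + Morphine group (n = 4). The knockdown changed it by -0.76 on the log2 scale under saline (adjusted p = 0.0153) and -0.67 under morphine (adjusted p = 0.0506). Here and below, p-values are from edgeR's quasi-likelihood test, adjusted over all tested genes by the Benjamini-Hochberg method, and a gene was called with an adjusted p under 0.05 and a change of at least 1.5-fold. Replicate 3 of the Kdm7a-shRNA + Morphine group stood apart from the other 3 mice of its group for the homeostatic genes. It also had the deepest library and the lowest Kdm7a level, 3.01 normalized CPM. Values that rest on it are therefore also given without it.

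The homeostatic genes were higher in the mice with the Kdm7a-shRNA virus. Under saline, 7 of the 9 genes were called higher and none lower, where 7.43% of all tested genes were called higher and 9.31% lower. The median log2 fold change of the 9 genes was 1.18, against 0.015 over all tested genes. Under morphine, 2 of the 9, Cx3cr1 and Gpr34, were called higher, where 2.86% of all tested genes were called higher and 4.83% lower, and the median of the 9 was 0.76. Without replicate 3 of the Kdm7a-shRNA + Morphine group, 1 of the 9 (Gpr34) was called under morphine, and the median was 0.26. Averaged over both treatments, 7 of 9 were called higher, where 7.68% of all tested genes were called higher and 9.93% lower, and the median was 1.06. Without that mouse the averaged count was still 7 and the median 0.76. No homeostatic gene was called lower with the knockdown in any of the 3 comparisons. Tmem119 and Sall1 were the members that were not called under saline or on average. In bulk tissue a larger number of microglia and more of these transcripts per microglial cell cannot be told apart.

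**Figure D1:**
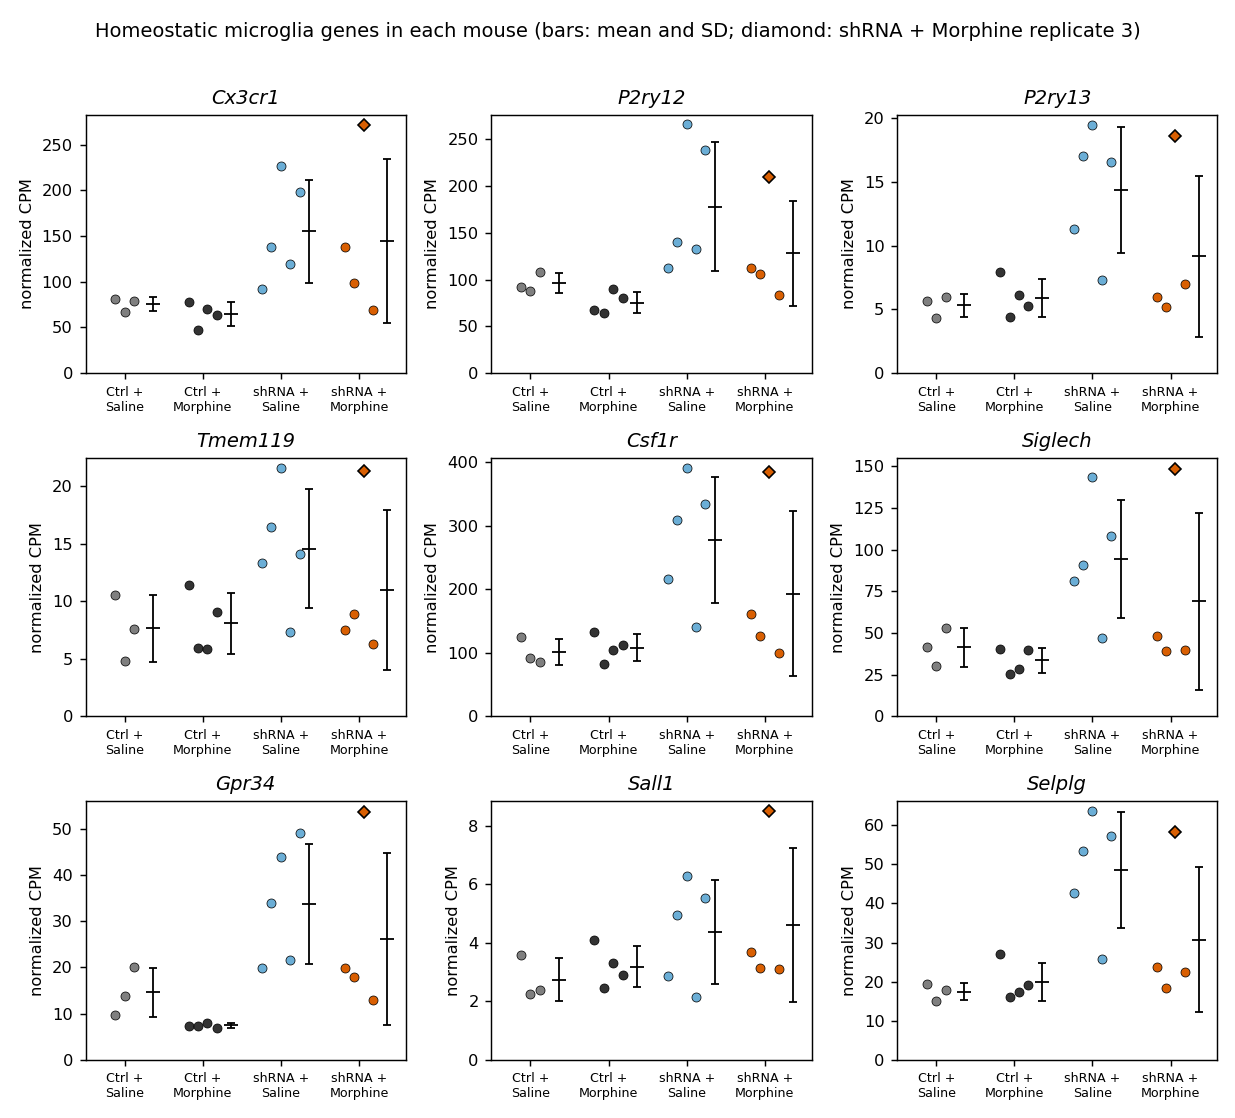
Normalized CPM (linear axis from 0) of each homeostatic gene in each of the 16 mice, by group, with the group mean and SD as a bar beside the points. The 7 Ctrl mice lie close together for most genes, whereas the Kdm7a-shRNA mice spread upwards, and the diamond of Kdm7a-shRNA + Morphine replicate 3 lies far above the other 3 mice of its group.

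Cx3cr1 encodes the receptor of fractalkine, a chemokine that neurons carry on their surface and shed. Its level was 81.4, 67.0 and 78.8 normalized CPM in the Ctrl + Saline mice and 78.1, 47.5, 70.6 and 63.4 in the Ctrl + Morphine mice. In the Kdm7a-shRNA + Saline mice it was 92.3, 138, 227, 120 and 198, and in the Kdm7a-shRNA + Morphine mice 138, 98.4, 272 and 69.1. Every Kdm7a-shRNA + Saline mouse was above every Ctrl + Saline mouse, whereas under morphine replicate 4 of the knockdown group lay within the range of the control group. The log2 fold change was 1.03 ± 0.353 (SE) under saline (adjusted p = 0.0463) and 1.16 ± 0.334 under morphine (adjusted p = 0.0373). Without replicate 3 the latter was 0.65 (adjusted p = 0.183). In the annotation (GENCODE vM21, GRCm38) the gene spans chr9:119901616-120069879 on the minus strand, a span that also holds parts of Csrnp1, Gorasp1, Ttc21a, Wdr48 and Xirp1. Of these neighbours, Csrnp1, Gorasp1 and Wdr48 had enough counts to be tested, and none of them was called in a knockdown comparison.

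P2ry12 encodes the ADP receptor that steers microglial processes towards injured cells. It was at 92.5, 88.2 and 108 normalized CPM in the Ctrl + Saline mice and at 67.7, 64.5, 89.6 and 79.9 in the Ctrl + Morphine mice. The Kdm7a-shRNA + Saline mice had 113, 140, 266, 132 and 238, and the Kdm7a-shRNA + Morphine mice 112, 106, 210 and 84.0. The saline groups did not overlap, and under morphine 3 of the 4 knockdown mice were above all controls. The log2 fold change was 0.89 ± 0.292 under saline (adjusted p = 0.0398) and 0.76 ± 0.276 under morphine (adjusted p = 0.0879), and the latter was 0.42 without replicate 3. P2ry13, the gene of a related ADP receptor next to it, was expressed at 5.68, 4.29 and 5.96 normalized CPM in the Ctrl + Saline mice and at 7.89, 4.38, 6.09 and 5.24 in the Ctrl + Morphine mice. It reached 11.3, 17.1, 19.4, 7.31 and 16.6 in the Kdm7a-shRNA + Saline mice, all above the controls of that treatment. In the Kdm7a-shRNA + Morphine mice it stood at 5.98, 5.16, 18.6 and 6.98, so that only replicate 3 was outside the control range. Accordingly the log2 fold change was 1.44 ± 0.396 under saline (adjusted p = 0.0174) and 0.67 ± 0.368 under morphine (adjusted p = 0.272), and 0.03 under morphine without replicate 3.

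P2ry12 (chr3:59216272-59262871) and P2ry13 (chr3:59207892-59210882) both lie on the minus strand within Med12l, which is on the plus strand. Med12l, with 41 to 137 counts per mouse, had a log2 fold change of -0.04 under saline and 0.14 under morphine. It was not stated whether the counting used strand. The promoters of the pair, from 250 bases before to 50 bases after the start of transcription (RefSeq, GRCm38.p6), are shown because these neighbours rose together under saline. Both were searched on either strand for GAGGAA and GGAAGT, a pair of short purine-rich motifs that share GGAA and are found in binding sites of PU.1 and related ETS factors of macrophages. Capitals mark the matches. The P2ry12 promoter is chr3:59262936-59263235 and the P2ry13 promoter chr3:59210833-59211132, both on the minus strand and printed in the direction of transcription.
P2ry12: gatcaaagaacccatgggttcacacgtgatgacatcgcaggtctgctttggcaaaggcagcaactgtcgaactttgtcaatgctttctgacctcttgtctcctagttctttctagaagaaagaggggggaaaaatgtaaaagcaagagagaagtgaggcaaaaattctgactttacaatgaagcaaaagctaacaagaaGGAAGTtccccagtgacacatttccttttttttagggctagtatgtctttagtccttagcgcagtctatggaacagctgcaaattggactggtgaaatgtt
P2ry13: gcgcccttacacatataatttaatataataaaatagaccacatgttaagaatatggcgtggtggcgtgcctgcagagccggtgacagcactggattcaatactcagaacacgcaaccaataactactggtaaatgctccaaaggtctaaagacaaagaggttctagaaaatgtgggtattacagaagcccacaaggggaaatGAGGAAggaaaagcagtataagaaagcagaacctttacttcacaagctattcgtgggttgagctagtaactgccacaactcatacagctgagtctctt
The P2ry12 promoter held 1 copy of GGAAGT and the P2ry13 promoter 1 copy of GAGGAA. Of the 32851 promoters of the RefSeq table, 28.3% held GAGGAA and 23.8% held GGAAGT, so that a match in a window of 300 bases was common. The search of member promoters covered 5 of the 9 homeostatic genes (P2ry12, P2ry13, Cx3cr1, Siglech and Sall1, the last with several starts). Csf1r was among the genes not covered. Of the 7 promoters searched, 4 held either motif, where 43.4% of all promoters did.

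Gpr34 encodes a receptor for lysophosphatidylserine. In the Ctrl + Saline mice its level was 9.65, 13.9 and 20.1 normalized CPM, and in the Ctrl + Morphine mice it was 7.39, 7.26, 8.03 and 6.95, values close to one another. In the Kdm7a-shRNA + Saline mice it was 19.8, 34.0, 43.8, 21.6 and 49.0, and in the Kdm7a-shRNA + Morphine mice 19.8, 18.0, 53.6 and 13.02. Gpr34 was the 1 member for which every Kdm7a-shRNA + Morphine mouse was above every Ctrl + Morphine mouse. The log2 fold change under morphine was 1.83 ± 0.393 (adjusted p = 0.00997), the largest among the 9 genes in that comparison, and it was still called without replicate 3 (1.19, adjusted p = 0.0418). Under saline the groups overlapped by 1 mouse on each side, and the log2 fold change was 1.21 ± 0.401 (adjusted p = 0.0410). The gene (chrX:13632089-13640858, plus strand) lies inside Cask, which is on the minus strand. Cask fell by 0.62 on the log2 scale under saline (adjusted p = 0.00972), and had -0.29 under morphine (adjusted p = 0.247).

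Csf1r encodes the receptor of CSF1 and IL-34, on which microglia depend for survival. It was at 125, 92.3 and 85.8 normalized CPM in the Ctrl + Saline mice and at 133, 82.4, 104 and 113 in the Ctrl + Morphine mice. In the Kdm7a-shRNA + Saline mice it was at 216, 309, 390 and 334 in replicates 1, 2, 3 and 5 and at 141 in replicate 4, which still exceeded the controls. The Kdm7a-shRNA + Morphine mice had 162, 127, 384 and 99.0, of which the second and the last fell within the control range. The log2 fold change was 1.46 ± 0.378 under saline (adjusted p = 0.0128). Under morphine it was 0.84 ± 0.348 (adjusted p = 0.138) with all mice and 0.26 without replicate 3. Csf1r is on chromosome 18 and its end overlaps Hmgxb3 on the other strand, which had log2 fold changes of -0.23 and -0.17.

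Selplg, Siglech and Tmem119 encode proteins of the cell surface. Selplg is the gene of the P-selectin ligand PSGL-1. It showed the largest change under saline, with 19.3, 15.03 and 17.9 normalized CPM in the Ctrl + Saline mice and 42.7, 53.5, 63.6, 25.9 and 57.3 in the Kdm7a-shRNA + Saline mice, which was 1.48 ± 0.346 on the log2 scale (adjusted p = 0.00720). In the Ctrl + Morphine mice it was at 27.1, 16.1, 17.3 and 19.3 and in the Kdm7a-shRNA + Morphine mice at 23.8, 18.3, 58.4 and 22.4. Only replicate 3 of the latter was above the controls, and the log2 fold change was 0.63 ± 0.319 (adjusted p = 0.222) with it and 0.11 without it. Tmem119, the gene of a membrane protein used to tell microglia from blood-derived macrophages, lies close by on the same strand of the same chromosome (chr5:113793729-113800516, with Selplg at chr5:113818536-113832644, minus strand). It was at 10.6, 4.78 and 7.55 normalized CPM in the Ctrl + Saline mice and at 13.3, 16.5, 21.6, 7.31 and 14.1 in the Kdm7a-shRNA + Saline mice, of which replicate 4 was within the control range. Its log2 fold change under saline was 0.94 ± 0.402 (adjusted p = 0.105). Under morphine, the controls had 11.4, 5.98, 5.84 and 9.09 and the knockdown mice 7.51, 8.87, 21.3 and 6.31, and the log2 fold change of 0.47 ± 0.377 became -0.10 without replicate 3.

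Siglech encodes a sialic acid-binding lectin that signals through the adaptor encoded by Tyrobp. It was at 41.4, 30.0 and 53.1 normalized CPM in the Ctrl + Saline mice and at 81.5, 90.6, 143, 47.1 and 108 in the Kdm7a-shRNA + Saline mice, so that replicate 4 overlapped the controls. The log2 fold change was 1.18 ± 0.411, with an adjusted p (0.0494) just under the threshold. In the Ctrl + Morphine mice it was at 40.7, 25.7, 28.4 and 39.7 and in the Kdm7a-shRNA + Morphine mice at 48.4, 39.3, 148 and 39.6. Its log2 fold change under morphine was 1.04 ± 0.386 (adjusted p = 0.0968) with all mice and 0.33 without replicate 3, the mouse that was 3.50 times the mean of the other 3. The gene is at chr7:55768178-55778925 on the plus strand. Its promoter (chr7:55767934-55768233), shown because it held both motifs, carries them as their reverse complements.
Siglech: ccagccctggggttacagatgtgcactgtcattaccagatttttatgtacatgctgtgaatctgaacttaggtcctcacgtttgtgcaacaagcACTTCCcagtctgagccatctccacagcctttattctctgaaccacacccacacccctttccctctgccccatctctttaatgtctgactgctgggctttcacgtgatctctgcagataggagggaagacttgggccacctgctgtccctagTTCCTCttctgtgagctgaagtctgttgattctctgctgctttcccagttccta

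Sall1 encodes a zinc finger transcription factor that maintains microglial identity, and it was the least counted member, with 18 to 99 reads per mouse. It was at 3.57, 2.24 and 2.38 normalized CPM in the Ctrl + Saline mice, at 4.09, 2.45, 3.29 and 2.89 in the Ctrl + Morphine mice, at 2.87, 4.95, 6.28, 2.14 and 5.53 in the Kdm7a-shRNA + Saline mice and at 3.68, 3.12, 8.51 and 3.09 in the Kdm7a-shRNA + Morphine mice. The ranges of control and knockdown mice overlapped under both treatments. The log2 fold change was 0.68 ± 0.395 under saline (adjusted p = 0.235), with a 95% interval from -0.15 to 1.51. Under morphine it was 0.56 ± 0.365 (adjusted p = 0.361), and 0.04 without replicate 3. The gene (chr8:89027235-89044162, minus strand) overlaps no other protein-coding gene.

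**Figure D2:**
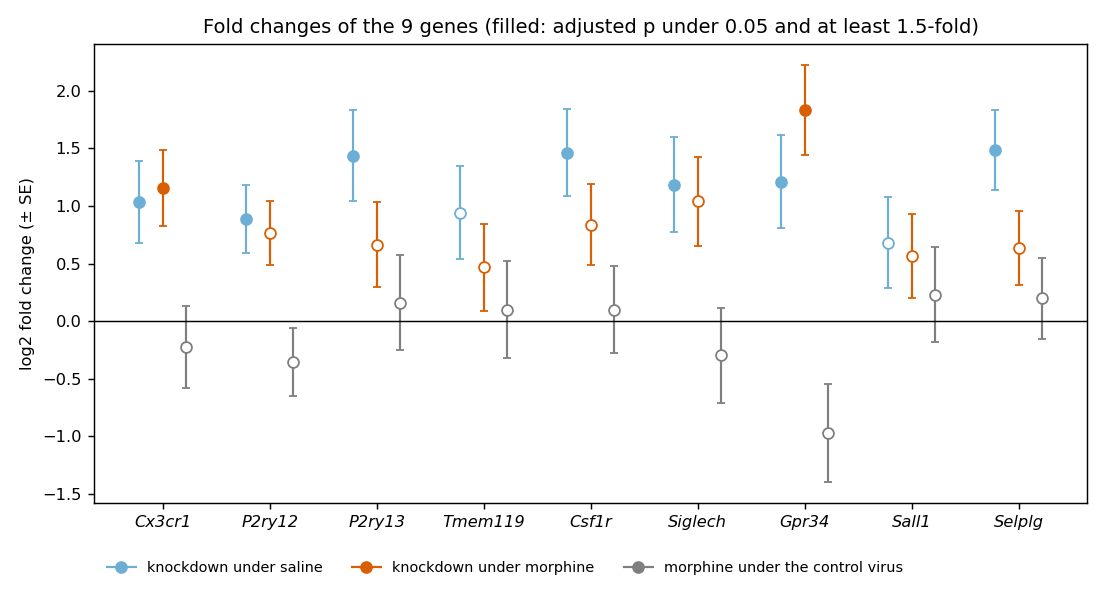
Log2 fold change with its standard error for each homeostatic gene in 3 comparisons, with filled circles where the gene was called. All 18 knockdown values lie above 0, and the values for morphine under the control virus lie on either side of 0 with none called.

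Set by group means, all 9 genes had both Kdm7a-shRNA means above both Ctrl means. The highest mean was in the Kdm7a-shRNA + Saline group for 8 genes and in the Kdm7a-shRNA + Morphine group for Sall1. The means of these neighbouring groups did not differ beyond their spread in the test. The lower of the Ctrl means was that of the morphine group for 4 genes and that of the saline group for 5. In the saline comparison 5 of the 9 genes (Cx3cr1, P2ry12, P2ry13, Csf1r and Selplg) had every knockdown mouse above every control mouse, as had 11.1% of all tested genes. Under morphine this was so for 1 of the 9, as for 6.37% of all tested genes.

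The calls under saline rested on thin margins for part of the group. P2ry13, Csf1r and Selplg were called under each processing alternative with all mice, whereas the count fell from 7 to 3 when library sizes alone were used for scaling, when only annotated genes were tested, or when at least 10 counts were required in every mouse. With 1 mouse left out, the count ran from 1 to 8. It was 1 (Selplg) without Ctrl + Saline replicate 2 or 3, 3 without Ctrl + Saline replicate 1 or Kdm7a-shRNA + Saline replicate 3 or 5, and 4 without Kdm7a-shRNA + Saline replicate 2. The log2 fold changes themselves stayed positive for all 9 genes in these fits. Under morphine, Gpr34 was called without any 1 of the 8 mice. Cx3cr1 lost its call without any of the 4 Ctrl + Morphine mice and without Kdm7a-shRNA + Morphine replicate 1 or 3. Without Kdm7a-shRNA + Morphine replicate 4, which had the lowest knockdown value for 5 of the genes, 5 of the 9 genes were called.

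**Figure D3:**
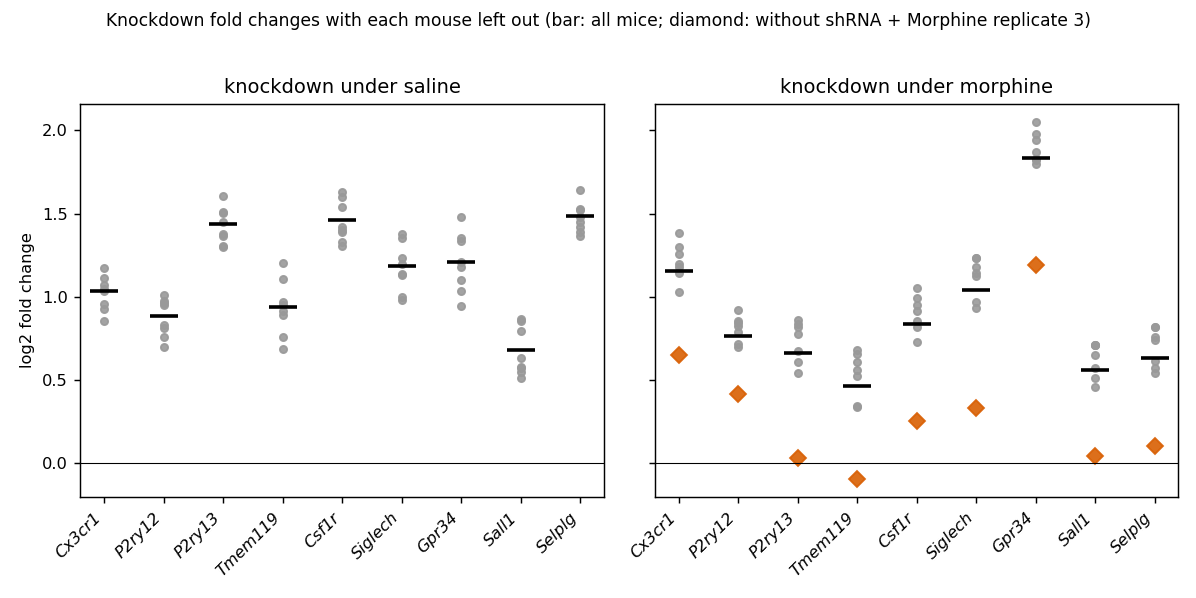
Log2 fold change of each homeostatic gene with the knockdown under saline (left) and under morphine (right), with all mice (bar) and with each compared mouse left out in turn (points). Leaving out Kdm7a-shRNA + Morphine replicate 3 (diamonds) brings 3 of the right-hand values (P2ry13, Tmem119 and Sall1) to between -0.10 and 0.04, and no single mouse does so on the left.

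Whether morphine changed these genes was compared within each virus. Under the control virus, edgeR called 0 of the 9 genes, as it called 0% of all tested genes, and DESeq2 also called none of the 9. At an unadjusted p under 0.05 there was 1 of the 9, Gpr34, with 2205 of all genes. Its log2 fold change was -0.97 ± 0.423 (adjusted p = 0.371), and those of the other 8 genes were between -0.35 (P2ry12) and 0.23 (Sall1). Under the knockdown, edgeR and DESeq2 again called 0 of the 9, where edgeR called 0.00531% of all tested genes. Here 8 of the 9 genes had a negative log2 fold change, and Selplg, with -0.65 ± 0.299 on the log2 scale (adjusted p = 0.712), was the 1 member with an unadjusted p under 0.05, among 1321 of all genes. The 95% intervals reached from -1.28 to -0.02 for Selplg and from -1.32 to 0.10 for P2ry13. Without replicate 3 of the Kdm7a-shRNA + Morphine group all 9 log2 fold changes were negative, from -1.25 (P2ry13) to -0.41 (Sall1) with a median of -0.99, and Selplg was at -1.18, with adjusted p-values from edgeR of 0.129 (Selplg) to 0.634 (Sall1).

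Whether the effect of the knockdown depended on the treatment was tested as an interaction, morphine minus saline. It was called for 0 of the 9 genes by edgeR and by DESeq2, where edgeR called 0.085% of all tested genes, and no member had an unadjusted p under 0.05, which 2022 genes had. The values ran from -0.85 ± 0.462 for Selplg (adjusted p = 0.538) to 0.62 ± 0.547 for Gpr34 (adjusted p = 0.750). Their 95% intervals, -1.82 to 0.12 and -0.53 to 1.77, both include 0. Without replicate 3 of the Kdm7a-shRNA + Morphine group the value was negative for all 9 genes, from -1.41 (P2ry13) to -0.02 (Gpr34) with a median of -0.85, and adjusted p-values from edgeR of 0.116 (Selplg) to 0.990 (Gpr34). The knockdown effect is therefore not shown to differ between saline and morphine, though more genes were called under saline. The comparisons share mice, since each Ctrl group and each Kdm7a-shRNA group enters several of them.

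The spread within the Kdm7a-shRNA mice was wider than within the Ctrl mice for every member. The highest Kdm7a-shRNA value was 3.17 (P2ry12) to 4.12 (Gpr34) times the lowest, whereas among the 7 Ctrl mice the ratio was 1.61 (Csf1r) to 2.90 (Gpr34). For 8 of the 9 genes the same 4 of the 9 Kdm7a-shRNA mice had the highest values, namely saline replicates 2, 3 and 5 and morphine replicate 3. For Cx3cr1 morphine replicate 1 stood level with saline replicate 2. The highest value of all was in saline replicate 3 for 5 genes and in morphine replicate 3 for 4, and the lowest Kdm7a-shRNA value was in morphine replicate 4 for 5 genes, in morphine replicate 2 for 3 and in saline replicate 4 for 1. Morphine replicate 3 was 2.09 (P2ry12) to 3.50 (Siglech) times the mean of the other 3 mice of its group. Those 3 mice averaged 0.937 (Tmem119) to 2.28 (Gpr34) times the Ctrl + Morphine mean.

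The 9 genes thus moved together from mouse to mouse. Over the 36 pairs of members, Pearson's r of log2 normalized CPM over the 16 mice had a median of 0.868 and ran from 0.661 (Gpr34 and Sall1) to 0.986 (P2ry13 and Selplg), and Spearman's rho had a median of 0.784. After the group means had been removed, the median r was 0.865. Within the 9 Kdm7a-shRNA mice alone it was 0.879, and within the 7 Ctrl mice it was 0.512, with a range from -0.55 to 0.912. These correlations describe genes measured in the same libraries, and they are given with no p. Of 13834 other genes with a mean of at least 1 normalized CPM, those whose pattern over the 16 mice was most like the mean pattern of the members were Grn (r = 0.990), the gene of progranulin, Lgmn (0.986), the gene of the lysosomal protease legumain, Ssr4 (0.980), of a protein of the endoplasmic reticulum translocon, Gusb (0.979), of a lysosomal glucuronidase, Rgs10 (0.976), Tcn2 (0.976), Man2b1 (0.975), of a lysosomal mannosidase, and Anxa3 (0.975). With the group means removed, Lgmn (0.983), Man2b1 (0.982), Grn (0.980), Tcn2 (0.977) and Ly86 (0.977) were the most alike. Of these, Ly86 was the only gene on the list of other microglia genes described next.

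The other genes that are enriched in microglia rose as well. Of a list of 40 such genes, 28 were called higher under saline, 20 under morphine and 37 on average, and none lower. Over all tested genes 7.43, 2.86 and 7.68% were called higher. The median log2 fold changes of the 40 were 1.38, 1.27 and 1.29. Trem2, the gene of a lipid receptor of microglia, had 146 normalized CPM on average in the Ctrl + Saline group and 670 (669.5) in the Kdm7a-shRNA + Saline group, with 2.17 ± 0.337 on the log2 scale averaged over treatments (adjusted p = 0.000198). Tyrobp, the gene of the adaptor that TREM2 and Siglec-H use, had 2.03 ± 0.310 (adjusted p = 0.000169). Ly86 had 2.06 ± 0.342 and Gpr183, the gene of an oxysterol receptor, 2.77 ± 0.353. These 4 genes had the smallest unadjusted p of the list in this comparison, so that high values were part of their choice. Averaged over treatments, the 40 log2 fold changes ran from 0.50 (Kcnk13) to 2.77, with a median of 1.29. The median of the homeostatic genes was 1.06, and their highest value was 1.52 for Gpr34. Without replicate 3 of the Kdm7a-shRNA + Morphine group, 3 of the 40 were called under morphine, with a median of 0.70, and 32 on average, with a median of 1.05, as the calls over all genes also fell, from 538 higher to 144 under morphine.

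Genes of the activation state also rose, with higher medians. Of 20 genes that are known to be turned up in microglia responding to disease, 18 were called higher under saline, 16 under morphine and 19 on average. Over all tested genes 7.43, 2.86 and 7.68% were called higher. The medians of the 20 were 1.76, 2.14 and 1.98. Averaged over treatments, Cst7, of a cystatin, had a log2 fold change of 3.001 ± 0.427 (adjusted p = 9.66e-05), Spp1, the gene of osteopontin, 3.004 ± 0.363 (adjusted p = 2.41e-05), Ccl6, of a chemokine, 2.95 ± 0.379, and Clec7a, of the receptor dectin-1, 2.30 ± 0.331. Without replicate 3, 11 of the 20 were called under morphine, with a median of 1.53, and 19 on average, with a median of 1.70. The lists were written with earlier results of these data known, Trem2 stands on both and Tyrobp also on the list of partners below, and the medians are set side by side without a test of the difference between lists.

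**Figure D4:**
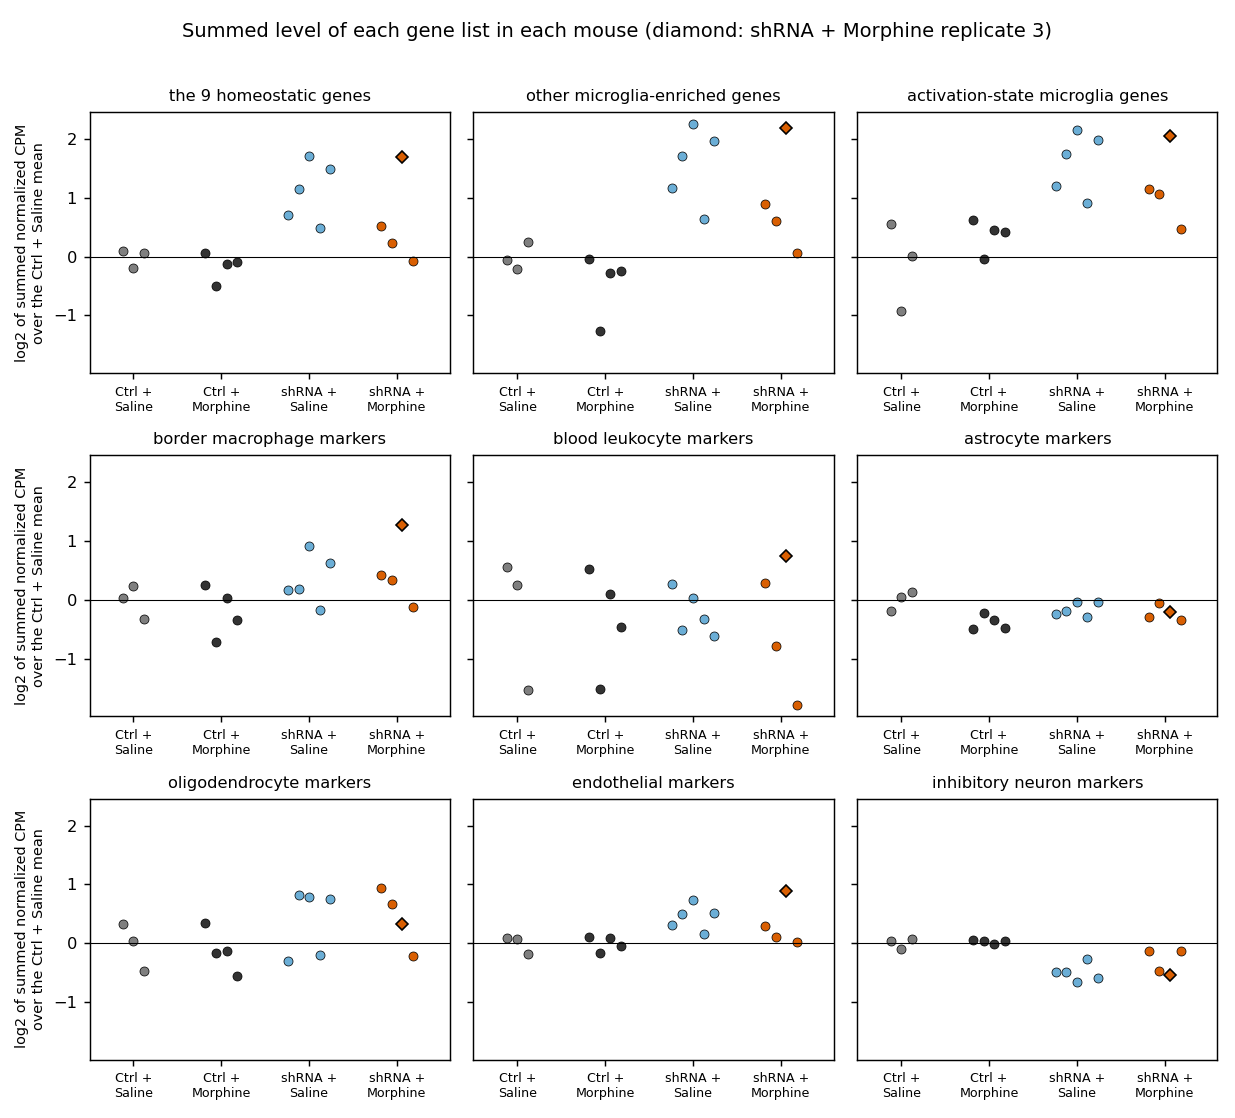
Log2 of the summed normalized CPM of 9 gene lists over their Ctrl + Saline mean, in each mouse. The homeostatic, other microglia-enriched and activation-state lists have higher medians in both Kdm7a-shRNA groups than in either Ctrl group. The same holds for the border macrophage, oligodendrocyte and endothelial lists. In each of these lists the lowest Kdm7a-shRNA mouse lies within the range of the Ctrl mice.

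The summed level of the homeostatic genes was 256 to 389 normalized CPM in the 7 Ctrl mice. It was 504 to 1181 in the Kdm7a-shRNA + Saline mice and 521, 424, 1174 and 344 in the Kdm7a-shRNA + Morphine mice. Set against the sum of the 40 other microglia-enriched genes of the same mouse, the homeostatic genes came to 12.4, 11.3 and 9.81% in the Ctrl + Saline mice and to 11.9, 18.9, 12.4 and 12.4% in the Ctrl + Morphine mice. In the Kdm7a-shRNA + Saline mice the value was 8.12, 7.51, 7.56, 9.87 and 8.01%, and in the Kdm7a-shRNA + Morphine mice it was 8.58, 8.56, 7.93 and 10.04%. The Kdm7a-shRNA mice were thus at 7.51 to 10.04% and the Ctrl mice at 9.81 to 18.9%, ranges that overlapped at 1 Ctrl mouse, Ctrl + Saline replicate 3. Replicate 3 of the Kdm7a-shRNA + Morphine group was not apart from the other mice by this measure. The percent was read only between mice. Its denominator rests most on the most counted genes, Ctss and Tyrobp, with means of 942 and 419 normalized CPM in the Ctrl + Saline group. In the Kdm7a-shRNA + Saline group they had 2275 and 1876. The denominator also holds Trem2, which stands on the activation-state list as well. Gene by gene, the median log2 fold changes averaged over treatments were 1.06 for the homeostatic genes and 1.29 for the 40. That difference was not tested. Of the single members, the median percent was lower in the Kdm7a-shRNA mice for all but Gpr34, which was at 0.362% against 0.309% in the Ctrl mice. Sall1 was at 0.0463% against 0.114% and Tmem119 at 0.144% against 0.331%.

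**Figure D5:**
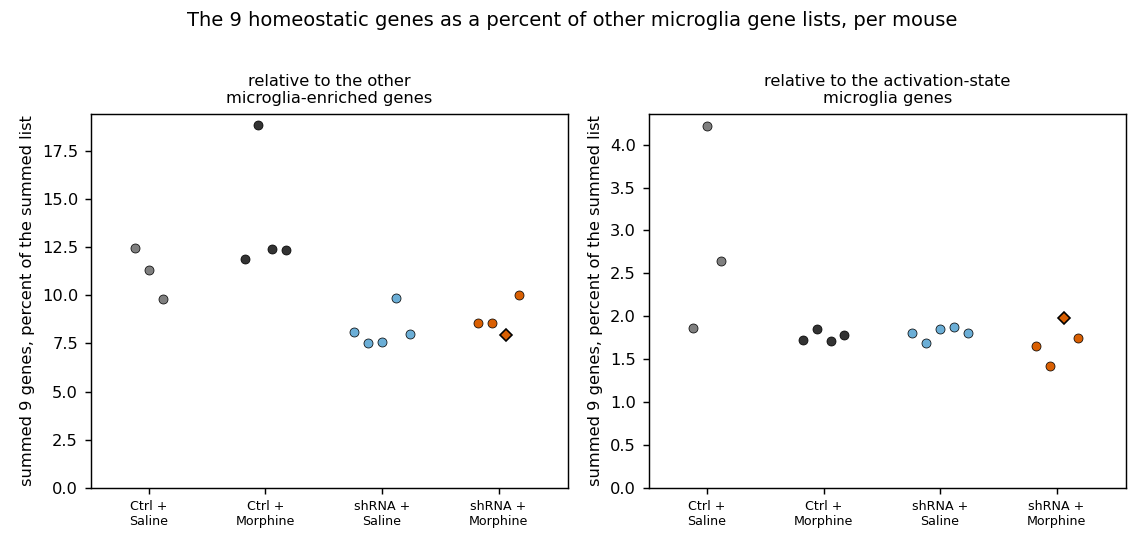
Summed normalized CPM of the 9 homeostatic genes as a percent of the summed other microglia-enriched genes (left) and of the summed activation-state genes (right), in each mouse, on axes from 0. On the left the Kdm7a-shRNA mice lie at 7.51 to 10.04% and the Ctrl mice at 9.81 to 18.9%, and on the right the medians are 1.80 and 1.85% with 2 Ctrl + Saline mice higher.

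Against the summed activation-state genes the homeostatic genes came to 1.42 to 1.98% in the Kdm7a-shRNA mice and to 1.71 to 4.22% in the Ctrl mice, with medians of 1.80 and 1.85%. That sum includes genes such as Apoe and Fth1 that astrocytes or all cells are known to express, and it was 7538 normalized CPM in Ctrl + Saline replicate 2 and 13880 to 21860 in the other 6 Ctrl mice.

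Ligands and partners of the homeostatic receptors were read from a list of 20 genes, 17 of which passed the filter. Of these 17, 7 were called higher and 1 lower under saline, 2 higher under morphine and 9 higher on average. Over all tested genes, 7.43% were called higher and 9.31% lower under saline, 2.86% higher under morphine and 7.68% higher on average. Csf1, a ligand of CSF1R, had group means of 11.6, 11.0, 23.7 and 18.5 normalized CPM for the Ctrl mice under saline and morphine and then the knockdown mice under saline and morphine, and log2 fold changes of 1.04 ± 0.340 under saline (adjusted p = 0.0390) and 0.76 ± 0.321 under morphine (adjusted p = 0.144). Il34, the other ligand, which neurons make, went the opposite way, with means of 168, 141, 105 and 120, a log2 fold change of -0.68 ± 0.184 under saline (adjusted p = 0.0158) and -0.24 ± 0.181 under morphine (adjusted p = 0.432). Cx3cl1, the gene of fractalkine, had means of 52.5, 62.0, 61.9 and 61.8 and was not called in any of the 3 knockdown comparisons, with a log2 fold change of 0.12 ± 0.115 on average.

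Among the partners of transforming growth factor beta, Nrros, the gene of a protein that presents the latent factor on microglia, had means of 5.26, 7.08, 19.6 and 12.2 normalized CPM, and Tgfbr2, a receptor subunit, 3.99, 4.58, 14.3 and 10.2. Their log2 fold changes under saline were 1.90 ± 0.377 (adjusted p = 0.00290) and 1.84 ± 0.420 (adjusted p = 0.00649), and those under morphine were 0.80 and 1.18, not called. Tgfb1 itself had 0 to 5 counts per mouse and was not tested. Entpd2, of an enzyme that turns extracellular ATP into ADP, the ligand of P2RY12 and P2RY13, was called under both treatments, with 0.92 ± 0.198 under saline (adjusted p = 0.00455) and 0.88 ± 0.186 under morphine (adjusted p = 0.00954).

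Markers of other cells that express part of the homeostatic set were read in the same fits. Of 9 border macrophage markers 8 were tested. None was called with the knockdown by edgeR or by DESeq2 in any of the 3 comparisons, and at an unadjusted p under 0.05 in edgeR there were 0 under saline, 1 under morphine and 3 on average. Their summed level was 14.2 to 27.8 normalized CPM in the Ctrl mice and 20.7 to 56.2 in the Kdm7a-shRNA mice, with the highest value in Kdm7a-shRNA + Morphine replicate 3, and the averaged log2 fold change was 0.58 for Pf4, 0.54 for Cbr2, 0.82 for Ms4a7 and 0.49 for Stab1. Of 10 blood leukocyte markers 8 were tested, and again none was called by either tool, with 0, 2 and 0 at an unadjusted p under 0.05. They summed to 9.54 to 40.6 normalized CPM in the Ctrl mice and to 8.05 to 46.3 in the Kdm7a-shRNA mice. The median log2 fold changes of the tested markers on average were 0.51 for border macrophages and 0.54 for leukocytes, and 0.30 and -0.29 without replicate 3.

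The lists for the remaining cell types were read in the same way. Over all tested genes, 7.68% were called higher and 9.93% lower on average over treatments. In lists this short, 1 or 2 calls do not show a change of the cell type. On average over treatments 3 of 10 astrocyte markers were called higher, with log2 fold changes of 1.07 for Aldh1l1, 0.77 for Aqp4 and 0.99 for Gfap, a gene known to rise in reactive astrocytes. Higher calls were also made for 2 of 10 oligodendrocyte markers (Cldn11 and Opalin), 2 of 8 endothelial markers (Cldn5 and Pecam1), 2 of 7 markers of pericytes and smooth muscle (Acta2 and Tagln) and 1 of 6 excitatory neuron markers (Nrgn), and for 0 of 6 markers of oligodendrocyte precursors by edgeR or DESeq2, 1 of which had an unadjusted p under 0.05 in edgeR. Without replicate 3 of the Kdm7a-shRNA + Morphine group, 1 astrocyte, 1 endothelial and 1 pericyte and smooth muscle marker were called higher on average. Of 7 inhibitory neuron markers, Pvalb and Slc32a1 were called higher and 3, namely Sst, Vip and Gad2, lower. The log2 fold changes were -1.07 for Sst, -0.73 for Vip and -0.60 for Gad2. The summed inhibitory neuron markers were 493 to 554 normalized CPM in the Ctrl mice and 333 to 485 in the Kdm7a-shRNA mice, so that these ranges did not overlap. Sst entered this sum with means of 239 (saline) and 261 (morphine) in the Ctrl groups and 108 and 131 in the Kdm7a-shRNA groups. The averaged log2 fold change was 0.75 for Pvalb, 0.63 for Slc32a1, -0.09 for Gad1 and -0.30 for Lhx6. The markers went both ways, so that the sum alone does not show a change of inhibitory neurons as a class. The part of other cell types in the results for the homeostatic genes was not tested.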

How the data were processed

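Per the paper's methods, the authors sequenced full-length cDNA of mPFC RNA on the Nanopore platform, kept reads above a quality and a length limit, discarded rRNA reads, clustered full-length reads on mm10 with minimap2 and Pinfish, and counted reads per gene. The submitters' processing notes name minimap2 and edgeR 3.8.6. The deposited counts are not normalized, and the deposited CPM values, made by the authors from each sample's total, were not used for tests. Strand use in counting was not given in the sources used here. Of the table's genes, 7210 are loci the authors assembled.

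The tests used edgeR 4.0.16 under R 4.3.3: filterByExpr on the 4 groups, TMM factors, 1 quasi-likelihood fit with a coefficient per group. Each standard error is the size of the log2 change divided by the root of its F statistic. DESeq2 1.42.0, RLE and library size scaling, known genes only, other filters, the compared groups alone, the replicate block and each mouse left out were alternatives. The homeostatic genes and all lists were chosen with earlier results of these data known. Named list genes were drawn from the 4 of each list with the smallest unadjusted p in the averaged knockdown comparison (of the glial, vascular and neuronal lists, those called), plus Cx3cl1, Csf1, Il34 and Tgfb1. Apoe, Fth1, Ctss, Kcnk13, Gad1, Gad2, Lhx6 and the genes overlapping members were named outside this rule, with values known. Counts of mice of a group differed by more than counting error (chi-square per degree of freedom 8.33 to 51.2 over 25 pairs). The pipeline was tested on simulated data.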

Additional observations from a re-analysis of the deposited data

Results flagged for a closer look

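In 5 of the 30 sets of values that were examined (each homeostatic gene and their sum in each of the groups with 4 or 5 mice), 1 mouse lay far from the others by Dixon's ratio, the gap to the nearest mouse divided by the range of the group. Chance gives about 1 in 20. All 5 were Kdm7a-shRNA + Morphine replicate 3, and the sets share that mouse. For Siglech the ratio was 0.917, with 148 normalized CPM against 48.4 in the nearest mouse. It was 0.891 for Sall1 (8.51 against 3.68), 0.865 for Selplg (58.4 against 23.8), 0.864 for P2ry13 (18.6 against 6.98) and 0.834 for Gpr34 (53.6 against 19.8). The same mouse had the deepest library, 12418112 counts, and the lowest Kdm7a level, 3.01 normalized CPM. The part of either in its values was not tested.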

How the results depend on the processing

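Of the 9 homeostatic genes, 7 were called with the knockdown under saline. With library sizes alone, with known genes only and with at least 10 counts in every mouse the count was 3 each time, and with 1 mouse left out it was 1 to 8. Of the 2 called under morphine, 1 was left with known genes only, with at least 10 counts in every mouse and with the compared groups alone, and 1 to 5 with 1 mouse left out. The averaged count was 7 to 9 throughout. The genes called over the whole table fell from 3151 to 1419 (known genes) and 1852 (10 counts) under saline, from 3316 to 1456 and 1525 on average, and from 1448 to 446, 697 and 685 (groups alone) under morphine. Scaling by library size alone shifted the all-gene median by -0.13 (saline) and -0.11 (morphine) on the log2 scale. DESeq2 called 185, 20 and 217 genes for morphine under the control virus, morphine under the knockdown and the interaction, where edgeR called 0, 1 and 16.

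Some log2 fold changes that were not called changed sign with 1 mouse left out. Their ranges were -0.61 to 0.13 (Cx3cr1) and -0.41 to 0.28 (Sall1) for morphine under the knockdown. For morphine under the control virus they were -0.016 to 0.28 (P2ry13), -0.16 to 0.37 (Tmem119) and -0.021 to 0.24 (Csf1r). For the knockdown under morphine the range was -0.10 to 0.68 (Tmem119). For the interaction they were -0.38 to 0.35 (Cx3cr1), -0.47 to 0.069 (P2ry12), -0.85 to 0.059 (Siglech), -0.022 to 0.90 (Gpr34) and -0.64 to 0.046 (Sall1). The cause was not tested.

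Whether the replicate numbers pair the samples was not settled. Over 21 pairs of same-numbered mice the correlation of deviations from the group means was -0.10 to 0.39, over 0.1 in 6. Between the Ctrl groups it was 0.15, 0.21 and 0.11 for replicates 1, 2 and 3. Differently numbered pairs were not compared. With the replicate block 7, 3 and 7 of the 9 genes were called under saline, under morphine and on average, P2ry12 being added under morphine. Depth limits Sall1 most, with as few as 18 reads in a mouse.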
